A study of Mus musculus with 14 samples.

Results

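The genes described here are 7 transcription regulators that sit at the output and on the repressive side of the circadian clock: Dbp, Tef, Hlf, Nfil3, Ciart, Bhlhe40 and Bhlhe41. They were chosen by name and function, with earlier results of these data known. All 7 were found among the 55487 gene identifiers of the count table, and all 7 were among the 15528 genes with enough reads to be tested. Hearts of male C57BL/6 mice that had received no treatment were sequenced. The 4 groups were wild-type hearts at 2 months of age (3 libraries), knockout hearts at 2 months (3 libraries), wild-type hearts at 15 months (4 libraries) and knockout hearts at 15 months (4 libraries). In the knockout (Myh6-Cre-Sqstm1fl/fl), both copies of Sqstm1, which encodes the autophagy receptor p62, are floxed and removed by Cre. The Myh6 promoter that drives Cre works in cardiac muscle cells, and other cells of the heart keep the gene. The controls are labelled wild type, with no Cre or floxed allele named. The hour of day at which hearts were taken is not given in the sources used here, nor is whether hearts with equal replicate numbers were handled or bred together, so p-values measure only the spread between these samples. In bulk tissue, fewer cells of a type and less RNA per cell cannot be told apart.

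The circadian clock is a transcription loop that runs in nearly every cell, cardiac muscle cells included. The activators Clock and Arntl (BMAL1) bind E-box sequences and switch on the Period and Cryptochrome genes, whose products then repress the activators. Dbp, Tef and Hlf are the PAR bZIP proteins, activators that are driven by this loop and bind D-box sequences in genes further down. Nfil3 (E4BP4) binds the same D-boxes and represses, so the PAR bZIP proteins and Nfil3 compete for the same sites. Ciart (CHRONO) represses the Clock and Arntl pair directly, and Bhlhe40 and Bhlhe41 (DEC1 and DEC2) are basic helix-loop-helix repressors that occupy E-boxes. In heart and liver the transcripts of several of these genes, Dbp above all, swing widely over a day.

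The E-box is the letter string on which this loop acts, so the region at each gene's start was searched for it. RefSeq promoter windows (mouse GRCm38.p6, from 250 bases before to 50 bases after the start) were at hand for 6 of the 7 genes, the exception being Bhlhe40. The motif CACGTG was found 3 times in the Ciart window. Of 32851 promoter windows of the same length, 7.15% held at least 1 such E-box and 0.0883% held at least 3. Tef has 2 windows with 1 E-box in each, and the Bhlhe41 window held 1. None was found in the windows of Dbp, Hlf or Nfil3, which says only that these letters are not in these windows. The Ciart window lies on chr3:95882179-95882478 (minus strand), the first Tef window on chr15:81802423-81802722 (plus strand) and the Bhlhe41 window on chr6:145865371-145865670 (minus strand). They are shown as windows that hold E-boxes. A link between E-boxes and the spread of a gene was not tested, and Dbp, which varied widely, had none in its window. Capitals mark the E-boxes.
Ciart: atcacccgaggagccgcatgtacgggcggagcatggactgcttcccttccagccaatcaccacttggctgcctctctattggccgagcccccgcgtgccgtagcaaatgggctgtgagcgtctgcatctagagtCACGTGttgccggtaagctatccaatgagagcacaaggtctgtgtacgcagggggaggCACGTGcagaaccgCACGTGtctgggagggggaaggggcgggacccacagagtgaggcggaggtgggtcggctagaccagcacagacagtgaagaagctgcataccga
Tef: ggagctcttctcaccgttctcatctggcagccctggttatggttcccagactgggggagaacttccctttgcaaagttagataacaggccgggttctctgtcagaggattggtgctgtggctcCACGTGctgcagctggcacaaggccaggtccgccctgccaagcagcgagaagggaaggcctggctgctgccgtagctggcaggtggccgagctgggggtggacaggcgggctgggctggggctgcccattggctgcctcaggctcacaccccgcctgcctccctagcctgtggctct
Bhlhe41: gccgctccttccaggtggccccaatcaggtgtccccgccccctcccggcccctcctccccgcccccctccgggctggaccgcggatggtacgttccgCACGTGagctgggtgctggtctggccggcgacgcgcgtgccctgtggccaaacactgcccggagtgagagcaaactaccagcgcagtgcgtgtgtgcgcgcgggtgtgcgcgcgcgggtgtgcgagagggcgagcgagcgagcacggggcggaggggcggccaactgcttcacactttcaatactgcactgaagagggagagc
The first bases of the 3 Ciart E-boxes lie at -116, -58 and -44 from the start site. The single E-box lies at -127 in this Tef window and at -153 in the Bhlhe41 window. A D-box (TTATGTAA, TTACATAA or TTACGTAA, with the first 2 the reverse complements of each other and the last its own) was found in none of the windows of the 7 genes and in 1.06% of all windows.

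Total counts ranged from 20218992 to 30404416 per library, and 27.5% to 46.0% of them fell on mitochondrially encoded genes. Sqstm1 itself fell by 3.30 on the log2 scale in the knockout at 2 months and by 3.23 at 15 months. Cardiac muscle markers (Myh6, Tnnt2, Actc1, Ryr2 and Tnni3) summed to between 16205 and 34070 CPM, a count relative to its library's total. CPM of single genes and of summed markers are both TMM-scaled. Wild-type replicate 1 at 2 months stood apart in its atrial markers, which summed to 1633 CPM against 2.57 to 217 CPM in the other 13 libraries, and leaving it out ended none of the age calls over both genotypes among the 7 genes. The atrial marker Myl7 ran from 0.0421 to 58.1 CPM in knockout hearts of 15 months and reached 638 CPM in wild-type hearts of 2 months. Sln, another atrial marker, was at 0 in 5 libraries. How much atrium each sample held was not tested. Replicate 3 of both genotypes at 2 months stood apart in single transcripts that were picked after their values were seen. The orphan receptor transcript Nr4a3 was at 148 CPM in the wild-type and 64.3 CPM in the knockout replicate 3, against 2.00 to 5.62 CPM in the other 2-month libraries. Fkbp5, a glucocorticoid-induced chaperone transcript, was at 25.6 and 31.5 CPM there, against 4.66 to 8.87 CPM. Ciart, Dbp and Nfil3 also stood apart in these replicate 3 libraries, so the age results of the 7 genes over both genotypes are given with and without the pair. Since the pair was set apart partly by these 3 genes themselves, their values without it are a description, and a call of theirs without it supports nothing.

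Per kilobase of exon, the scale on which genes can be compared, Dbp was the most abundant of the 7 with a mean level of 25.9 CPM per kb over the 14 libraries. Tef followed at 11.2 and Bhlhe40 at 9.97 CPM per kb. Hlf was at 5.53, Bhlhe41 at 5.07, Ciart at 3.78 and Nfil3 at 3.05 CPM per kb. The 7 genes varied to very different degrees. The highest library exceeded the lowest 30.8-fold for Ciart, 5.13-fold for Dbp, 4.19-fold for Nfil3 and 3.77-fold for Bhlhe41, but 2.81-fold for Bhlhe40, 2.5-fold for Hlf and 2.03-fold for Tef. Ranked by the standard deviation of log2 CPM among all tested genes, Ciart stood at percentile 99.6 and Dbp at 92.5, whereas Tef stood at 39.2.

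**Figure D1:**
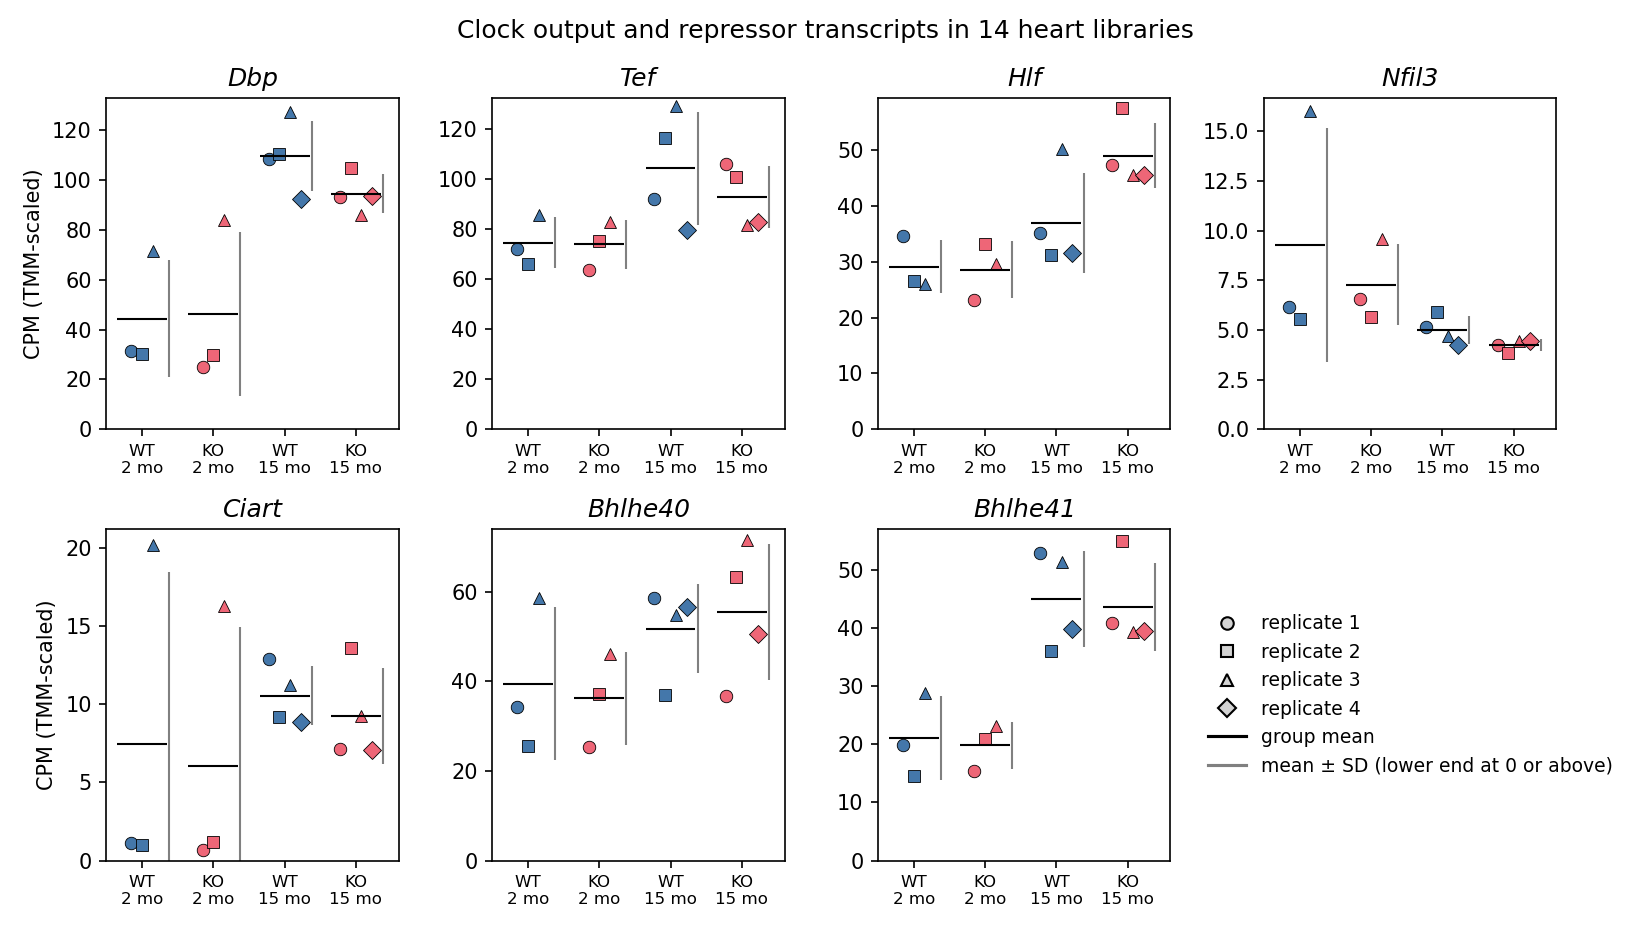
Level of each of the 7 genes in every library, in TMM-scaled CPM on a linear axis, for wild-type (WT, blue) and knockout (KO, red) hearts at 2 and 15 months. Symbols give the replicate, horizontal bars the group mean and grey lines the mean ± SD. Ciart spans 0.657 to 20.2 CPM within the 2-month hearts, and Dbp and Bhlhe41 are higher in every 15-month library than in any 2-month library.

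Age differences passed the test for several of these genes. As the hour of collection is not given, a difference between the ages in a clock gene cannot be told apart from a difference in hour. In the mean of the age differences of both genotypes, 4 of the 7 rose from 2 to 15 months (Dbp, Tef, Hlf and Bhlhe41) and 1 fell (Nfil3), at an adjusted p under 0.05 in edgeR's quasi-likelihood test with Benjamini-Hochberg adjustment over all genes. Of all tested genes, 23.9% passed in this comparison, 10.8% higher and 13.1% lower. The median log2 difference of the 7 was 0.54, against 0.00059 over all genes. With both replicate 3 libraries of 2 months left out, 4 of the 7 passed, all higher (Bhlhe40, Bhlhe41, Dbp and Ciart), which is a description only. In that fit 5.49% of all genes passed, 2.77% of all genes higher. Only Dbp and Bhlhe41 are in both counts. Replicate 3 was also the highest 2-month library of its group for Bhlhe40 and Bhlhe41 in both genotypes. Their calls without the pair are therefore no test of a rise with age. Bhlhe40 lacks a call with all libraries.

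Within 1 genotype, fewer libraries bear on the difference. In wild-type hearts 1 of the 7 passed (Bhlhe41, higher) where 1.04% of all genes did, 0.612% of all genes higher. In knockout hearts 2 of the 7 passed (Hlf and Bhlhe41, both higher) where 2.25% of all genes did, 1.07% of all genes higher. With the replicate 3 pair left out, Bhlhe41, Dbp and Ciart passed in both genotypes, which is a description only for each of them. In that fit 0.271% of all genes passed in wild type (0.196% higher) and 0.436% in knockout hearts (0.259% higher). The age groups did not overlap for Dbp and Bhlhe41 in wild-type hearts, a pattern that 8.6% of genes showed in that direction. In knockout hearts they did not overlap for Dbp, Hlf and Bhlhe41, all higher (8.83% of genes), and for Nfil3, lower (11.3% of genes). Over both genotypes together, Dbp and Bhlhe41 were higher in every 15-month library than in all 2-month libraries, as were 1.86% of genes.

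**Figure D2:**
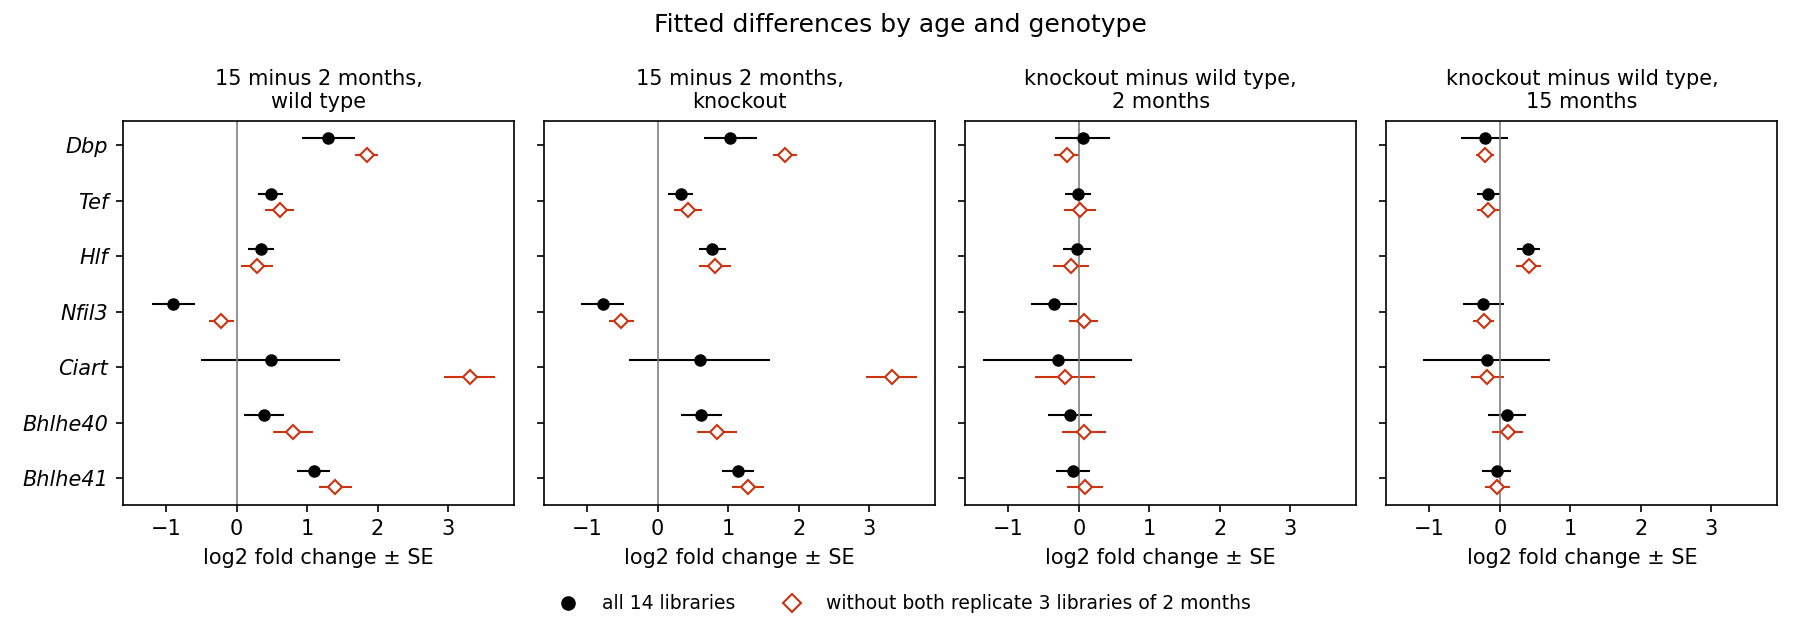
Fitted log2 fold changes with their standard errors for the 7 genes: 15 against 2 months in each genotype, and knockout against wild type at each age. Filled points use all 14 libraries and open diamonds leave out both replicate 3 libraries of 2 months. Ciart moves from 0.48 to 3.31 in the wild-type age difference, and none of the knockout differences passed the test.

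Dbp, the PAR bZIP activator widely used as a read-out of the loop, lies on chromosome 7 at 45705088 to 45710203 of GRCm38, plus strand (ENSMUSG00000059824). In wild-type hearts at 2 months its level was 31.4, 30.3 and 71.4 CPM in replicates 1 to 3, and in knockout hearts 24.8, 29.7 and 83.9 CPM. Its 15-month levels were 108, 110.4, 127 and 92.5 CPM in wild-type replicates 1 to 4, and 93.2, 105, 85.9 and 93.6 CPM in knockout replicates. Replicate 3 of each genotype at 2 months was more than the other 2 replicates together, yet every 15-month library was higher still. The group means were 44.4 ± 23.4 CPM (SD, n = 3) and 109.6 ± 14.2 CPM (SD, n = 4) in wild type at the 2 ages, and 46.1 ± 32.8 CPM (SD, n = 3) and 94.4 ± 7.78 CPM (SD, n = 4) in knockout. The age difference was 1.17 on the log2 scale over both genotypes (SE 0.26, adjusted p = 0.0104). It was 1.30 (SE 0.38, adjusted p = 0.0940) in wild type and 1.03 (SE 0.37, adjusted p = 0.111) in knockout, neither of which passed. Both passed when knockout replicate 3 of 2 months alone was left out (adjusted p = 0.0388 and 0.0250). That library was the highest of the 2-month libraries for Dbp itself, so this is a description and no test of a rise with age. With the replicate 3 pair left out the difference was 1.82 over both genotypes, 1.84 in wild type and 1.81 in knockout. Its exons share 539 bases with those of Sphk2 on the other strand, and the strand setting of the counting is not given in the sources used here. Sphk2 was at 7.57 to 12.9 CPM and fell with age by 0.34 over both genotypes (adjusted p = 0.0450), the opposite direction to Dbp.

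Tef, the most even of the PAR bZIP genes, lies on chromosome 15 at 81802421 to 81826863, plus strand (ENSMUSG00000022389). Wild-type hearts of 2 months gave 71.9, 65.9 and 85.8 CPM, and their knockout counterparts 63.4, 75.1 and 82.8 CPM. Older wild-type hearts gave 91.9, 116, 129 and 79.5 CPM, and older knockout hearts 106, 101, 81.6 and 82.7 CPM. The age groups overlapped through the replicate 3 libraries of 2 months, wild-type replicate 4 of 15 months and knockout replicates 3 and 4. Group means moved from 74.5 ± 10.2 to 104 ± 22.5 CPM in wild type and from 73.8 ± 9.77 to 92.7 ± 12.4 CPM in knockout (SD, n = 3 and 4). The age difference over both genotypes was 0.41 (SE 0.13, adjusted p = 0.0320), and it missed the threshold in each genotype alone (adjusted p = 0.139 and 0.240). The call over both genotypes ended when 1 of 5 libraries was left out: wild-type replicate 2 (adjusted p = 0.0884), knockout replicate 1 (0.0910) or knockout replicate 2 (0.0531) of 2 months, or wild-type replicate 3 (0.0585) or knockout replicate 2 (0.0614) of 15 months. Leaving out the replicate 3 pair gave 0.52 (adjusted p = 0.0530).

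Hlf, the PAR bZIP gene first known from a fusion in leukemia, lies on chromosome 11 at 90336536 to 90390895, minus strand (ENSMUSG00000003949). Wild-type hearts of 2 months gave 34.5, 26.6 and 26.1 CPM, and their knockout counterparts 23.1, 33.1 and 29.6 CPM. Older wild-type hearts gave 35.1, 31.1, 50.1 and 31.6 CPM, and older knockout hearts 47.2, 57.6, 45.5 and 45.6 CPM. Replicate 3 of 2 months was not high in either genotype, unlike for Dbp and Ciart. The age groups separated in knockout and overlapped in wild type. Over both genotypes the age difference was 0.56 (SE 0.13, adjusted p = 0.0120), and the call held with each of the 14 libraries left out in turn. Leaving out the replicate 3 pair gave 0.55, with an adjusted p of 0.0583. Within knockout it was 0.78 (SE 0.19, adjusted p = 0.0453), a call that held in 4 of the 14 fits that leave out 1 library: wild-type replicate 1 of 2 months, wild-type replicates 2 and 3 of 15 months, or knockout replicate 1 of 15 months. Over the 14 fits the adjusted p ran from 0.0152 to 0.224. Within wild type it was 0.35 (SE 0.19, adjusted p = 0.267). The 2 age differences were not shown to differ: the difference between them was 0.43 (adjusted p = 0.9999).

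Nfil3, the repressor that occupies the same D-boxes, lies on chromosome 13 at 52967209 to 52981073, minus strand (ENSMUSG00000056749). Wild-type hearts of 2 months gave 6.17, 5.55 and 16.0 CPM, and their knockout counterparts 6.57, 5.67 and 9.58 CPM. Older wild-type hearts gave 5.17, 5.90, 4.68 and 4.24 CPM, and older knockout hearts 4.26, 3.82, 4.42 and 4.46 CPM. Replicate 3 of 2 months was the highest library of its group in both genotypes. The age groups separated in knockout, and in wild type 1 library of 15 months (replicate 2) lay above 1 of 2 months (replicate 2). Over both genotypes Nfil3 fell by 0.84 (SE 0.22, adjusted p = 0.0170). Without knockout replicate 3 of 2 months the adjusted p was 0.0517, and without wild-type replicate 3 of 2 months the change was -0.49, which passed. Without both, the change was -0.37, which did not pass.

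The balance of D-box activators and repressor can be read as the summed level of Dbp, Tef and Hlf per kilobase divided by that of Nfil3. It is a ratio of RNA levels, not of proteins, and is given as a description with no test. At 2 months it was 8.15, 8.20 and 4.88 in wild-type replicates 1 to 3, and 6.11, 8.72 and 9.09 in knockout replicates. The 15-month ratios were 20.8, 19.3, 28.8 and 21.9 in wild-type replicates 1 to 4, and 24.6, 29.9, 21.0 and 22.1 in knockout replicates. Every 15-month library thus had a higher ratio than all 2-month libraries, the replicate 3 pair included. In that pair the sum of the PAR bZIP genes was high (38.7 and 43.0 CPM per kb, against 19.8 to 24.8 in the other 2-month libraries), and so was Nfil3. Group means were 7.08 ± 1.90 and 7.97 ± 1.62 at 2 months (SD, n = 3) and 22.7 ± 4.17 and 24.4 ± 3.96 at 15 months (SD, n = 4), wild type first. The make-up of the sum differed too: Dbp supplied 40.6% to 45.0% of it in replicates 1 and 2 of 2 months, 61.7% and 65.2% in the replicate 3 pair, and 60.3% to 68.1% at 15 months.

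**Figure D3:**
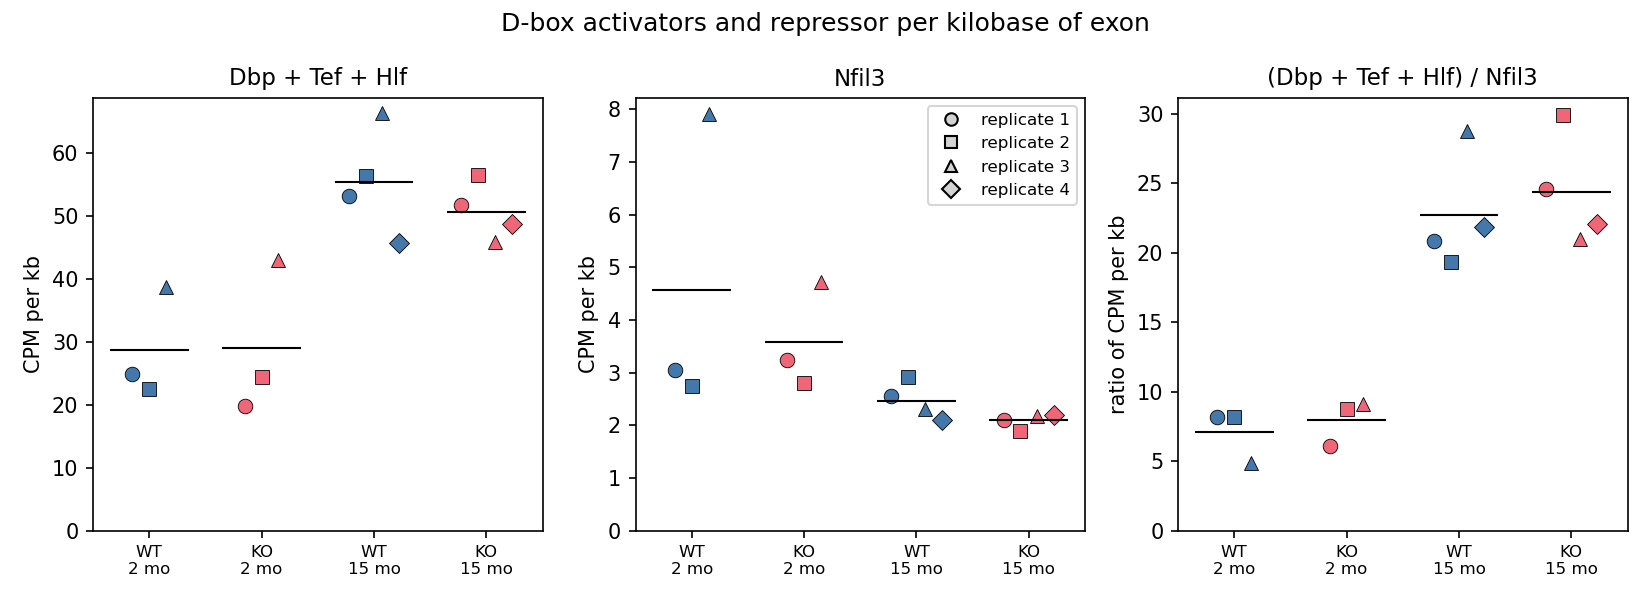
Summed level of Dbp, Tef and Hlf (left, CPM per kb of exon), level of Nfil3 (middle, CPM per kb) and their ratio (right) in each library by group. Symbols give the replicate and bars the group mean. The 15-month libraries have ratios of 19.3 to 29.9 and the 2-month libraries of 4.88 to 9.09, with no overlap.

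Ciart, the repressor of the Clock and Arntl pair whose window holds the 3 E-boxes shown above, lies on chromosome 3 at 95878503 to 95882251, minus strand (ENSMUSG00000038550). Wild-type hearts of 2 months gave 1.12, 1.01 and 20.2 CPM, and their knockout counterparts 0.657, 1.20 and 16.3 CPM. Older wild-type hearts gave 12.9, 9.20, 11.3 and 8.85 CPM, and older knockout hearts 7.12, 13.6, 9.24 and 7.07 CPM. The 2-month hearts thus held both the 4 lowest and the 2 highest libraries of the series, with all 8 libraries of 15 months in between. The low levels rest on 13 to 29 reads each and the high ones on 523 and 404 reads. The lowest level, 0.657 CPM, has an exact Poisson interval of 0.350 to 1.12 CPM at 95%, which covers counting error only. With all libraries the age difference was 0.54 (SE 0.70, adjusted p = 0.595) over both genotypes. Leaving out the replicate 3 pair gave 3.31, a 9.93-fold higher level, with 3.31 in wild type and 3.32 in knockout. Leaving out only wild-type replicate 3 of 2 months gave 1.96 (adjusted p = 0.0482). Both leave out 2-month libraries that were high in Ciart itself, so neither is a test of a rise with age.

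Bhlhe41 (DEC2), an E-box-binding repressor, lies on chromosome 6 at 145858243 to 145865558, minus strand (ENSMUSG00000030256). Wild-type hearts of 2 months gave 19.8, 14.6 and 28.8 CPM, and their knockout counterparts 15.3, 20.9 and 23.2 CPM. Older wild-type hearts gave 52.8, 36.0, 51.3 and 39.8 CPM, and older knockout hearts 40.9, 54.9, 39.3 and 39.4 CPM. Every 15-month library was higher than all 2-month libraries. Group means went from 21.0 ± 7.18 to 45.0 ± 8.31 CPM in wild type and from 19.8 ± 4.07 to 43.6 ± 7.54 CPM in knockout (SD, n = 3 and 4). The age difference was 1.12 over both genotypes (SE 0.16, adjusted p = 0.00127), which was the lowest adjusted p of the 7 genes, and the call held with each of the 14 libraries left out. It was 1.09 (SE 0.23, adjusted p = 0.0374) in wild type and 1.14 (SE 0.23, adjusted p = 0.0264) in knockout. With 1 library left out at a time, the wild-type call held in 6 of 14 fits (adjusted p from 0.0222 to 0.178) and the knockout call in 9 of 14 (0.00882 to 0.149). The wild-type call ended without wild-type replicate 1 or 2 or knockout replicate 2 or 3 of 2 months, or without wild-type replicate 1, 3 or 4 or knockout replicate 4 of 15 months. The knockout call ended without any 1 of the 3 knockout hearts of 2 months, or without knockout replicate 2 or 4 of 15 months. With the replicate 3 pair left out all of them passed, with 1.34 over both genotypes (adjusted p = 0.00141). That pair held the highest 2-month library of each genotype for Bhlhe41 itself, so these values are a description. Its exons share 1280 bases with Gm43909 on the other strand, and reads of overlapping genes cannot be told apart without strand. Exons of Tef (193 bases with Gm17597) and Bhlhe40 (118 bases with 0610040F04Rik) also overlap a gene on the other strand.

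Bhlhe40 (DEC1), its close relative, lies on the same chromosome at 108660629 to 108666925, plus strand (ENSMUSG00000030103). Wild-type hearts of 2 months gave 34.2, 25.7 and 58.6 CPM, and their knockout counterparts 25.5, 37.2 and 46.2 CPM. Older wild-type hearts gave 58.7, 37.0, 54.9 and 56.6 CPM, and older knockout hearts 36.8, 63.3, 71.5 and 50.5 CPM. Its age groups overlapped in both genotypes, in wild type through replicate 3 of 2 months and in knockout through replicate 1 of 15 months. The age difference over both genotypes was 0.50 (SE 0.21, adjusted p = 0.0866). It passed without wild-type replicate 3 of 2 months (0.72, adjusted p = 0.0312), without knockout replicate 1 of 15 months (0.58, adjusted p = 0.0347) and without the replicate 3 pair (0.82, adjusted p = 0.0388). These fits leave out the highest 2-month libraries or the lowest 15-month library for Bhlhe40 itself. None of them is therefore a test of a rise with age. Per kilobase, Bhlhe40 was 2.38 to 2.91 times as abundant as Bhlhe41 in every 2-month library and 1.29 to 2.60 times at 15 months. Knockout replicate 3 of 15 months was the single library whose ratio at that age lay within the 2-month range.

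The cardiac loss of Sqstm1 was the other comparison of the design. None of the 7 genes passed between knockout and wild type at 2 months, at 15 months or in the mean of both ages, where 0.00644% of all genes (1 gene, Sqstm1) passed in each. None passed without the replicate 3 pair either, where 0.00631% of genes did. At 2 months the log2 differences ran from -0.35 for Nfil3 (SE 0.33) to 0.055 for Dbp (SE 0.39). At 15 months they ran from -0.24 for Nfil3 (SE 0.29) to 0.40 for Hlf (SE 0.17), the latter with an unadjusted p of 0.0312 and an adjusted p of 0.999. Hlf averaged 37.0 ± 8.95 CPM in wild-type and 49.0 ± 5.81 CPM in knockout hearts of 15 months (SD, n = 4), and the groups overlapped through wild-type replicate 3. Whether the knockout difference changed with age was tested too: no gene of all those tested passed (0%), with 577 genes (3.72%) at an unadjusted p under 0.05 and 1 gene called by DESeq2. For Ciart the standard error of the knockout difference was 1.06 at 2 months, so differences of 2-fold in either direction were within the error. These p-values do not show that the genotypes were alike.

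Of 15 genes of the core loop, 4 rose with age over both genotypes (Per3, Cry2, Nr1d1 and Rora), 2 fell (Arntl and Npas2) and 9 did not pass, with a median difference of 0.13. The share of all genes in this comparison was 10.8% higher and 13.1% lower. Arntl, the E-box activator, gave 8.45, 6.81 and 3.90 CPM in wild-type hearts of 2 months and 9.85, 5.81 and 2.14 CPM in their knockout counterparts, so replicate 3 was the lowest of its group in both. Its 15-month levels were 1.83 to 4.88 CPM over both genotypes, and the fall was 0.98 on the log2 scale (SE 0.31, adjusted p = 0.0374). In the replicate 3 pair Arntl was therefore low where Dbp and Ciart were high. Per3, a Period gene, was at 8.34 to 14.5 CPM at 2 months and at 14.9 to 26.2 CPM at 15 months, with no overlap, and rose by 0.70 (SE 0.17, adjusted p = 0.0123). Nr1d1 (REV-ERB alpha), which represses Arntl and Nfil3, was at 44.2 to 56.9 CPM at 2 months with no departure of replicate 3. Its 15-month levels were 48.9 to 192 CPM, and it rose by 1.11 (SE 0.25, adjusted p = 0.0106). Per2, another Period gene, was at 3.08 to 14.2 CPM and at 8.44 to 19.3 CPM, with a difference of 0.43 that did not pass (adjusted p = 0.266). Without the replicate 3 pair, 2 of the 15 rose (Per3 and Cry2) and 2 fell (Arntl and Npas2), where 5.49% of all genes passed. There the difference was -1.29 for Arntl (adjusted p = 0.0251), 0.81 for Per3 (0.0348), 1.11 for Nr1d1 (0.0575) and 0.86 for Per2 (0.0714). The pair was set apart partly by clock output genes and held the lowest 2-month Arntl library of each genotype. These values are therefore a description only.

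**Figure D4:**
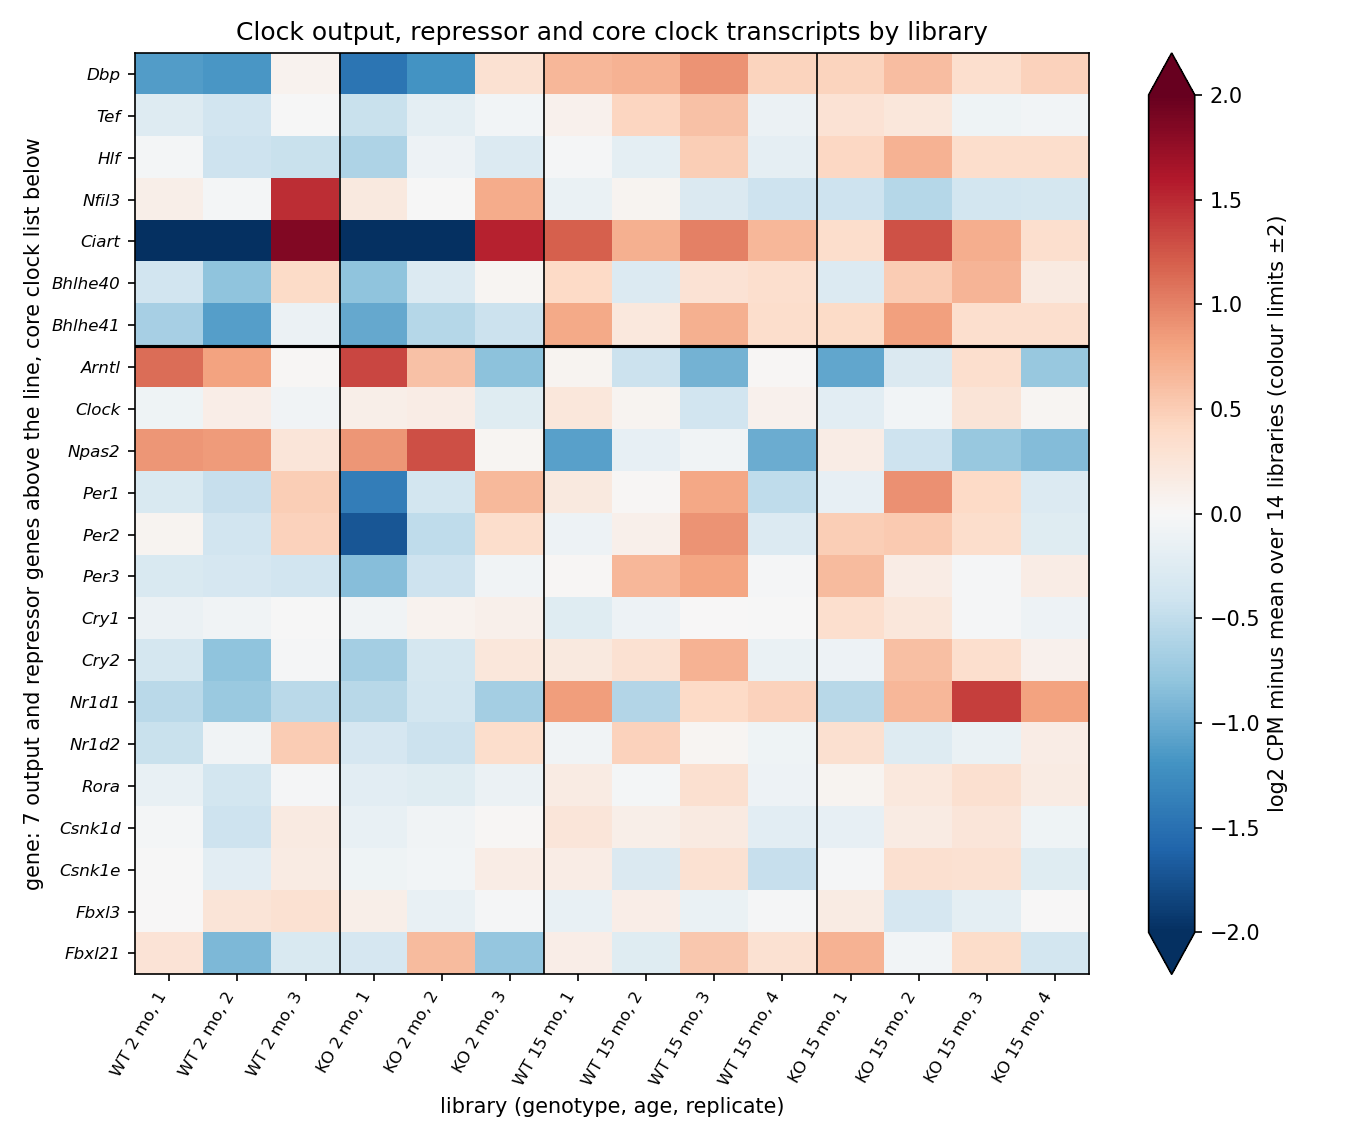
Log2 CPM of the 7 genes and of the 15 core clock genes in the 14 libraries, centred on each gene's mean, with libraries in columns by group and replicate, red for above and blue for below the mean, and colours capped at 2 either way. In the replicate 3 columns of 2 months, Ciart and Dbp are above and Arntl is below the other 2-month libraries.

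Per3 is shown because its window was the one among the 7 genes and the core clock genes searched in which a D-box, the target of the PAR bZIP proteins and Nfil3, was found. It held 2, first bases at -205 and -158, on chr4:151044616-151044915 (minus strand), where 0.0244% of all windows held at least 2. The capitals mark them. The match is a description and not a measured binding site.
Per3: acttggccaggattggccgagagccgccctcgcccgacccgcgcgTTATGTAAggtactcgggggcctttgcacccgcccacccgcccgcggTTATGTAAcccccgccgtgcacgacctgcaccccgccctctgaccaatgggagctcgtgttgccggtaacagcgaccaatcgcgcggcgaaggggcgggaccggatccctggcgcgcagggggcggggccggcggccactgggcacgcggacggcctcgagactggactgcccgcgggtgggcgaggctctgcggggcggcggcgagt

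Of 12 genes known to follow the clock in heart, 3 rose with age (Bdh1, Tcap and Nampt), 1 fell (Kcnip2) and 8 did not pass, with a median of 0.24, beside the 23.9% of all genes that passed in either direction. Bdh1, a mitochondrial enzyme of ketone body use, rose by 2.12 (SE 0.30, adjusted p = 0.000902). Kcnip2, a subunit of the transient outward potassium channel, fell by 0.60 (SE 0.15, adjusted p = 0.0138). Without the replicate 3 pair, 4 of the 12 rose (Bdh1, Tcap, Klf15 and Usp2) and none fell, Kcnip2 being at -0.56 (adjusted p = 0.0633). Klf15 and Usp2 passed only without the pair, which was set apart partly by clock output genes. Their calls are a description only. In the knockout comparisons no gene of either list passed.

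Some cell type markers also passed with age over both genotypes when all 14 libraries were used. Endothelial markers summed to 232 to 316 CPM at 2 months and to 244 to 1024 CPM at 15 months, and 3 of 4 rose (Pecam1, Cdh5 and Kdr). Cardiac muscle markers summed to 16205 to 27790 CPM and to 21435 to 34070 CPM, and 2 of 5 rose (Myh6 and Ryr2). Without the replicate 3 pair none of these 4 endothelial and 5 cardiac muscle markers passed, with medians of 0.75 and -0.027. Of 4 fibroblast and 4 macrophage markers, none passed with all libraries, and 1 fibroblast marker (Tcf21) fell without the pair, by 0.73 (adjusted p = 0.0442). Of the 4 atrial markers, Nppa fell by 2.65 (adjusted p = 0.0274), and none passed without the pair. Of the 4 skeletal muscle markers, Mylpf alone was tested, at 0.126 to 2.37 CPM. It fell by 1.99 (adjusted p = 0.00380), and by 2.30 without the pair (adjusted p = 0.00273), while Myh4 was at 0 in all 14 libraries. The markers of natural killer cells were too low to be tested. The slope of centred log2 CPM on log2 exon length also varied between libraries. It ran from -0.177 to -0.0105 at 2 months and from -0.0916 to 0.235 at 15 months. Exon lengths were 7867 bases for Tef, 6720 for Bhlhe41, 6681 for Hlf, 4705 for Bhlhe40, 2993 for Dbp, 2261 for Ciart and 2026 for Nfil3. The part of this slope and of the marker shifts in the age differences of the 7 genes was not tested.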

How the data were processed

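Processing began from the raw counts that the authors deposited, whole numbers of reads per gene. The submitters' processing notes name the build GRCm38 and STAR 2.7.3a, cutadapt 1.16, DESeq2 1.26.0 and featureCounts 1.6.3. The kit was stranded and depleted ribosomal RNA, per the labels' protocols. How strand and multiply mapped reads were counted, and with which annotation, is not given in the sources used here. Symbols, positions and exon lengths came from GENCODE M21 (55227 of 55487 identifiers matched). No column lacked a sample (0), and all pairs of libraries differed by far more than sampling noise.

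Genes were kept by filterByExpr (minimum count 10, minimum total 15) and tested with edgeR 4.0.16 in R 4.3.3: TMM scaling, a robust quasi-likelihood fit of 4 group means to all 14 libraries, and Benjamini-Hochberg adjustment over 15528 genes at 0.05. The procedure was tested on simulated data. Levels are CPM, and the SE is the log2 difference over the square root of F. Alternatives were RLE scaling, no filter, a mean CPM of at least 1, limma 3.58.1 (voom), DESeq2 1.42.0, only the groups compared, a replicate block, and libraries left out. Likeness of pattern is the root mean square difference of centred log2 CPM (prior count 2). Named genes were the 7 genes in every library, Arntl, Nr1d1, Per2 and Per3 by library, at most 4 called genes of each other list, and the 3 genes most like each of the 7. Where a list's count was small, every called gene is named, and these names, with Nr4a3, Fkbp5, Sphk2 and the cell type markers named, were chosen after their values were seen. The 7 genes and the lists were chosen with earlier results of these data known. A gene of the core clock list is not reported here and was left out of its counts. Equal replicate numbers were not treated as pairs in the main fit.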

Additional observations from a re-analysis of the deposited data

Results flagged for a closer look

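In knockout hearts of 15 months, replicate 2 lay far above the other 3 libraries for a pair of the 7 genes. Its Hlf level was 57.6 CPM, against 45.5 to 47.2 CPM in the others, and its Bhlhe41 level was 54.9 CPM, against 39.3 to 40.9 CPM. The gap to the next library exceeded Dixon's 95% critical value for a group of 4 in both cases. This was checked in 14 groups (7 genes in the 2 groups of 4 libraries), and chance marks about 1 group in 20. Without this library the age difference in knockout was 0.69 for Hlf (adjusted p = 0.119) and 1.01 for Bhlhe41 (adjusted p = 0.0701), so that both calls within knockout hearts ended. Over both genotypes both calls held without it.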

How the results depend on the processing

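Over both genotypes, the age calls of Dbp, Hlf and Bhlhe41 held in every fit that left out 1 library, and those of Dbp and Bhlhe41 in all 8 other alternatives too. The fit without the replicate 3 pair is among these 8, and there the calls of Dbp and Bhlhe41 are a description only. Counts of genes called moved with the method. Between knockout and wild type (1 gene), the count was 3 with no filter, 2 with a minimum mean CPM of 1 and 7 with DESeq2 at 2 months, 7 with DESeq2 and 2 with only the groups compared at 15 months, and 5 with DESeq2 in the mean of both ages. For age in wild type (161 genes) it was 1100 with DESeq2, 86 with only the groups compared and 43 without the replicate 3 pair. For age in knockout (349 genes) it was 1622, 134 and 69, and over both genotypes (3712 genes) it was 869 without the pair. For the difference of the knockout effects (0 genes) DESeq2 called 1. DESeq2 also called Dbp within wild type (adjusted p = 0.0156) and knockout (0.0472), and with only the groups compared Bhlhe41 in wild type (0.0695) and Hlf in knockout (0.0603) were lost.

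Equal replicate numbers were not shown to pair the samples. Own-number correlations ran from -0.44 to 0.32, and 2 of 6, 2 of 8, 3 of 6 and 3 of 6 libraries matched their own number best. Between the genotypes at 2 months, the replicate 3 libraries matched each other best (0.31). With so few libraries per group, these correlations cannot exclude a shared litter, day or batch. With the replicate block the age counts were 55 in wild type, 70 in knockout and 1365 over both genotypes. Under the block Bhlhe41 in wild type (0.0806) and knockout (0.0622), Hlf in knockout (0.111) and Nfil3 over both genotypes (0.0558) did not pass.

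With 1 library left out, counts were 1 to 1 (2 months), 1 to 3 (15 months, 3 without knockout replicate 1 of that age) and 1 to 1 (both ages) for the knockout. For age they were 38 (without wild-type replicate 2 of 2 months) to 796 in wild type, 49 (without knockout replicate 1 of 2 months) to 3523 in knockout and 1531 (without the same library) to 5589 over both genotypes, each highest without knockout replicate 1 of 15 months. For the difference of effects they were 0 to 1.

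Every reversal was in a difference that did not pass. For Dbp at 2 months the knockout difference was -0.047 with voom, -0.00058 and -0.044 with the replicate block over all groups and within the age, and -0.17 without the replicate 3 pair. Without that pair it was 0.016 for Tef, 0.068 for Nfil3, 0.071 for Bhlhe40 and 0.083 for Bhlhe41 at 2 months, and 0.0896 for Bhlhe40 and 0.022 for Bhlhe41 over both ages. The difference of effects was -0.0088 for Nfil3 with the block within each age and -0.30 without the pair, and -0.12 for Bhlhe41 without the pair. With 1 library left out, the 2-month knockout differences ran from -0.70 to 0.60 (Dbp), -0.10 to 0.12 (Tef), -0.14 to 0.12 (Hlf), -0.61 to 0.33 (Nfil3), -3.01 to 2.53 (Ciart), -0.35 to 0.29 (Bhlhe40) and -0.29 to 0.22 (Bhlhe41). Those of 15 months ran from -0.0401 to 0.26 (Bhlhe40) and -0.17 to 0.042 (Bhlhe41). Over both ages they ran from -0.46 to 0.20 (Dbp), -0.42 to 0.0498 (Nfil3), -1.60 to 1.17 (Ciart), -0.12 to 0.20 (Bhlhe40) and -0.17 to 0.091 (Bhlhe41). The Ciart age difference in wild type ran from -0.026 to 3.31. The differences of effects ran from -0.81 to 0.49 (Dbp), -0.56 to 0.37 (Nfil3), -2.71 to 2.82 (Ciart), -0.18 to 0.46 (Bhlhe40) and -0.26 to 0.25 (Bhlhe41). The causes were not tested. Depth limits Ciart most, with 13 to 29 reads in its low libraries.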

Other observations

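Transcripts that followed the 7 genes most closely over the 14 libraries were looked for among 11607 genes. Likeness is the root mean square difference of centred log2 CPM, and it is a description over libraries that share age, genotype and depth. Closest to Dbp was Bhlhe41 (0.35, where Dbp itself had a standard deviation of 0.84), followed by the glutamate transporter gene Slc1a1 (0.41) and the calcium channel gene Cacna1s (0.44). Closest to Ciart was Dbp, but at 0.90 against a standard deviation of 1.65 for Ciart, with Fam107a (1.06) and Slc1a1 (1.12) next, so no transcript searched came close to its pattern. Tef was followed most closely by the histone deacetylase gene Hdac4 (0.12), Pgm5 (0.14) and Inppl1 (0.15). Hlf was followed by the homeobox gene Meis2 (0.16), Pogz (0.17) and Ptpn3 (0.17), and Nfil3 by the small Maf gene Mafk (0.19), Rhoc (0.23) and the phosphate transporter gene Slc20a1 (0.23). For Bhlhe40 they were the hexokinase gene Hk2 (0.18), Rrp12 (0.18) and Tgm2 (0.19), and for Bhlhe41 the organic cation transporter gene Slc22a3 (0.24), Slc4a4 (0.26) and Nrap (0.27).

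Other inputs known to act on these genes were read from lists. Over all genes, 10.8% rose and 13.1% fell in this comparison, and 5.49% passed without the replicate 3 pair, so counts of 1 or 2 in a list lie near the background. Of 12 genes that respond to hypoxia, as Bhlhe40 and Bhlhe41 also do, none fell with age over both genotypes and 5 rose. These 5 were Slc2a1 (by 0.69), Pdk1 (by 0.46), Ndrg1 (by 0.66), Hk2 (by 0.67) and Pfkfb3 (by 0.67). Without the replicate 3 pair 4 of them rose, all but Ndrg1 (0.66, adjusted p = 0.0678). Of 10 glucocorticoid-response genes, 2 fell (Tsc22d3 by 0.60 and Errfi1 by 0.64), and none passed without the pair. Of 20 immediate early genes, 7 fell and 1 rose (Ier3), among the former Fosb by 3.76 and Atf3 by 3.50. Without the pair 2 fell (Btg2 and Atf3) and Ier3 rose. Of 10 other bZIP genes, Crem fell by 1.10 and Atf4 by 0.62, and Crem alone fell without the pair (by 0.73, adjusted p = 0.0399). None of these lists had a called gene between knockout and wild type.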
